A study of Homo sapiens with 30 samples.

Results

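Paclitaxel-resistant SUM190 cells given ruxolitinib and paclitaxel together were compared with the same cells given the DMSO vehicle, by bulk RNA sequencing. SUM190 is an established human inflammatory breast cancer cell line, and the labels call the cells used here its paclitaxel-resistant derivative (SUM190_PR). The libraries were chosen by treatment label alone: 2 received both drugs and 2 received DMSO, 4 of the 30 libraries of the series, which form 15 groups of 2. Treatment began 24 h after plating and lasted 72 h. The combination is labelled 15 nM ruxolitinib with 6.5 nM paclitaxel. Libraries of the same resistant cells given 1 drug served to set each agent beside the pair: 2 labelled 15 µM ruxolitinib and 2 labelled 6.5 nM paclitaxel. The ruxolitinib dose thus differs between the single-agent and combination labels, and whether the cells received different doses or 1 label has the wrong unit is not given in the sources used here. Whether the resistant cells are 1 clone or a pool, and whether the libraries of a group came from separate cultures, is not given there either, so a p-value here reflects library-to-library spread that could be purely technical.

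Ruxolitinib is an inhibitor of the Janus kinases JAK1 and JAK2, which sit on cytokine receptors and phosphorylate STAT transcription factors. STAT3 switches on acute-phase and survival genes as well as SOCS3, a feedback inhibitor of the pathway, whereas complexes holding STAT2 and IRF9 switch on interferon-stimulated genes. Paclitaxel binds beta-tubulin and stabilises microtubules, which arrests dividing cells in mitosis.

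The 8 libraries of these 4 groups held 18443749 to 29241801 reads assigned to genes, recovered from the deposited values. A count of 3 reads corresponded to 0.104 to 0.163 CPM (reads of a gene scaled to a fixed library total) in them. Of 20114 genes, 12743 reached 1 CPM in at least 2 libraries and were tested. The 7 epithelial markers (EPCAM, CDH1, ERBB2 and the keratins KRT7, KRT8, KRT18 and KRT19) summed to 6374 to 7068 CPM across the 4 groups, and no single one was below 327.4 CPM. The 7 stromal markers summed to 7.5 to 8.6 CPM, the 6 immune markers to 7.3 to 10.6 CPM and the 3 endothelial markers measured to 2.38 to 5.27 CPM. Of the 3 basal markers, the keratins KRT5 and KRT14 were at 0 in both combination libraries, while the transcription factor TP63 stood at 10.3 and 11.1 CPM there and at 14.2 and 14.3 CPM with DMSO. In bulk RNA, fewer cells of a type and less RNA per cell cannot be told apart.

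Promoters from 3 pathways are shown first because the pair of drugs moved several named genes in each: interferon and STAT genes that fell, NF-kB genes that rose and amino acid stress genes that rose. Each run is the 250 bases before the annotated start, 5′ to 3′ on the gene's strand, from RefSeq on GRCh38.p14. The authors' own build was hg19, so these coordinates do not apply to their alignments. Capitals mark matches to a motif on either strand. For the interferon genes the motifs were the STAT site TTCNNNGAA and the interferon response element, GAAA, any 2 bases, then GAAA. IRF9 at chr14:24161015-24161264 (plus strand) held 1 STAT site, PARP9 at chr3:122564301-122564550 (minus strand) held 1 response element and DDX60 at chr4:168318753-168319002 (minus strand) held both kinds.
IRF9: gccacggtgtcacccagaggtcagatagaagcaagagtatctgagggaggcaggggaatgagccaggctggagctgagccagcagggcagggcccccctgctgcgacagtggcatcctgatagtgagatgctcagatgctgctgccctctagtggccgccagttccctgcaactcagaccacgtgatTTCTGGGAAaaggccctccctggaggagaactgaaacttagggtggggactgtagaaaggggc
PARP9: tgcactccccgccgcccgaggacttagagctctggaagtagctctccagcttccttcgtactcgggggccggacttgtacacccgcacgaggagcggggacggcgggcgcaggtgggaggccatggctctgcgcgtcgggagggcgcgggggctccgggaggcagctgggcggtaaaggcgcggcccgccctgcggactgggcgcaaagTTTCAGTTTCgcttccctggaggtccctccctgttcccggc
DDX60: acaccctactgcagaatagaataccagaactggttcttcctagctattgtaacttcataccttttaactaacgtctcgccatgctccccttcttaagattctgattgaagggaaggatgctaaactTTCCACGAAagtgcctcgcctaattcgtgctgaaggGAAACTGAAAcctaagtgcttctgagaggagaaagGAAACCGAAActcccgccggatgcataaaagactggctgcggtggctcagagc

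For the NF-kB genes the motif was a kappaB site, GGGA, any base, then TTTCC. It was found once in NFKB2 at chr10:102395455-102395704 (plus strand) and once in TNFAIP3 at chr6:137867009-137867258 (plus strand).
NFKB2: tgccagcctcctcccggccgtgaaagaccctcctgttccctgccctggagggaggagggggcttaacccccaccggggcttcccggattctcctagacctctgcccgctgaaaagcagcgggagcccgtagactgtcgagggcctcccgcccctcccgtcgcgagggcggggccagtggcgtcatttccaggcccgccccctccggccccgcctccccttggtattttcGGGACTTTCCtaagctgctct
TNFAIP3: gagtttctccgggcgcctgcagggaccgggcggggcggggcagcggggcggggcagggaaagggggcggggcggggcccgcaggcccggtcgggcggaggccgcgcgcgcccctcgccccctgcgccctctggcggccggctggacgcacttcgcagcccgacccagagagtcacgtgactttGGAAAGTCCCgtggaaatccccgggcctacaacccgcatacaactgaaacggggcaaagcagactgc

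For the stress genes the motif was TGATGNAA, the element bound by ATF4 with C/EBP partners. It was found once in ASNS at chr7:97872409-97872658 (minus strand) and once in CHAC1 at chr15:40953221-40953470 (plus strand).
ASNS: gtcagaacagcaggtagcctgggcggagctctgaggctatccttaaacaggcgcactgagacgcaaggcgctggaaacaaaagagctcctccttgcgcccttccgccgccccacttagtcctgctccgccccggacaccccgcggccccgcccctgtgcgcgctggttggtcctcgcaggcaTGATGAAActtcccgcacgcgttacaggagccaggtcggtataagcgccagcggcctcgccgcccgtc
CHAC1: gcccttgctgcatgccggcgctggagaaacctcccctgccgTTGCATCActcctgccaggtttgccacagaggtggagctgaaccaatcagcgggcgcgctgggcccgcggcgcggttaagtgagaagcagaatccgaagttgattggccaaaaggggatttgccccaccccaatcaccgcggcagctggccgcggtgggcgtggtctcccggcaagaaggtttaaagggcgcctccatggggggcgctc

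Over all 35116 promoters of the table cut to the same 250 bases, 6.57% held the STAT site, 3.02% the interferon element, 9.28% either of these, 0.527% the kappaB site and 3.14% the ATF4 element. These shares are per promoter, whereas a gene counted below if any promoter listed for it held the motif, so the units differ. Among the 21 genes of the JAK-STAT, STAT target and interferon lists that fell with the combination, 15 had a sequence and 6 of those held the STAT site or the interferon element (IFI35, IFI44L, IFITM3, IRF9, DDX60 and PARP9). Of the 9 NF-kB genes that rose, 7 had a sequence and 3 held the kappaB site (NFKB2, NFKBIA and TNFAIP3). Of the 11 stress genes that rose, 9 had a sequence and 2 held the ATF4 element (ASNS and CHAC1). A match is a description of the letters in this window and not evidence of binding.

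The combination changed 609 of the 12743 genes, 4.78% of those tested, at an adjusted p under 0.05 (limma on log2(CPM + 1), Benjamini-Hochberg adjustment). Of these, 277 rose (2.17% of those tested) and 332 fell (2.61%), while 37 changed by at least 1 on the log2 scale, 18 of them upward. In 7645 genes (60% of those tested) both combination libraries lay on the same side of both DMSO libraries. The median log2 change of all tested genes was 7e-04. All log2 changes below are differences on the log2(CPM + 1) scale, given with the standard error of the fit, and they understate the change of genes with low CPM. The gene lists below were chosen with earlier results of these data known. Their counts, set beside the share of all tested genes, are therefore descriptions only. The count depended on how the spread was estimated: it was 1353 with only the 10 libraries of the resistant line and 2506 with only the 4 groups above. Leaving out 1 library at a time brought it to between 258 (without DMSO replicate 2) and 304 (without combination replicate 2).

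Within the JAK-STAT pathway itself, the genes that fell included receptor chains and STAT3. Of 31 components tested, 5 fell and 1 rose, where 2.61% of all tested genes fell and 2.17% rose. The list's median was -0.02. Falls numbered 3 and rises 0 whichever of the 4 libraries was left out. The oncostatin M receptor OSMR was at 125.2 and 121.3 CPM with DMSO and at 83.1 and 79.1 CPM with the combination. Both combination libraries lay below both DMSO libraries, a change of -0.60 ± 0.10 (adjusted p = 0.000489). With paclitaxel alone OSMR stood at 116.9 and 111.4 CPM and with ruxolitinib alone at 74.6 and 73.9 CPM, so the 4 libraries with ruxolitinib all lay below the 4 without it. IFNGR2, a chain of the interferon gamma receptor, changed by -0.46 ± 0.08, STAT3 by -0.31 ± 0.07 and IL13RA1, a chain of the IL-13 receptor, by -0.30 ± 0.08.

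The drug's own targets did not pass the test: JAK1 changed by 0.11 ± 0.08 (adjusted p = 0.591) and JAK2 by 0.14 ± 0.13 (adjusted p = 0.715). The shared receptor chain IL6ST changed by 0.15 ± 0.14 (adjusted p = 0.729). The cytokine IL11 rose from 0.422 and 0.445 CPM to 1.19 and 0.922 CPM. The calls for STAT3, IL13RA1 and IL11 were each lost whichever of the 4 libraries was left out, with adjusted p up to 0.11, 0.198 and 0.269.

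Among genes that STAT3 or STAT5 activates, 7 of 27 fell and 1 rose, beside 2.61% and 2.17% of all tested genes. The list's median was -0.12. Falls numbered 3 without combination replicate 1 and 4 without any 1 of the other libraries compared. SOCS3, the feedback inhibitor, was at 2.40 and 3.48 CPM with DMSO, at 3.41 and 2.16 CPM with paclitaxel, at 0.572 and 0.483 CPM with ruxolitinib and at 0.325 and 0.542 CPM with the combination. The 4 libraries with ruxolitinib all lay below the 4 without it. These levels rest on 57 and 86 reads with DMSO and 9 and 10 reads with the combination. The change was -1.45 ± 0.18 (adjusted p = 1.13e-05). FGB, the fibrinogen beta chain, was at 320.2 and 291.9 CPM with DMSO, at 216.2 and 207.1 with paclitaxel, at 146.9 and 145.9 with ruxolitinib and at 127.8 and 122.8 with the combination. All 4 groups were separate from one another in that order, and the combination changed it by -1.28 ± 0.12 (adjusted p = 2e-07).

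NNMT, nicotinamide N-methyltransferase, changed by -0.82 ± 0.09 and BCL3, an IkB-family cofactor, by -0.69 ± 0.13. The call for BCL3 was lost without combination replicate 1 (-0.58, adjusted p = 0.0614). SERPINA3, an acute-phase protease inhibitor, fell by 0.46 ± 0.13, and that call (adjusted p = 0.0485) was lost whichever of the 4 libraries was left out, at adjusted p of 0.0968 to 0.424. SAA1, another acute-phase gene, moved the other way: 6.66 and 8.49 CPM with DMSO against 18.5 and 17 CPM with the combination, a rise of 1.13 ± 0.14 (adjusted p = 2.35e-05). SAA1 has a near-identical neighbour, SAA2, so the split of reads between them is uncertain. FGG, the fibrinogen gamma chain, changed by -0.17 ± 0.11 and did not pass (adjusted p = 0.51).

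Of 39 interferon-stimulated genes, 9 fell and 1 rose with the combination, where 2.61% of all tested genes fell and 2.17% rose. The list's median was -0.21. IRF9, the DNA-binding partner of STAT2, stood at 13.7 and 11.8 CPM with DMSO and at 5.95 and 6.07 CPM with the combination, a change of -0.96 ± 0.15 (adjusted p = 0.000159). PARP9, a mono-ADP-ribosylation cofactor induced by interferon, stood at 71.6 and 69.7 CPM with DMSO and at 40.6 and 40.7 CPM with the combination. Its change was -0.78 ± 0.08 (adjusted p = 7.09e-07). The paclitaxel libraries (12 and 17 CPM for IRF9, 69.3 and 71.4 CPM for PARP9) overlapped DMSO in both genes and lay above the combination libraries. DDX60, a helicase of antiviral defence, changed by -0.52 ± 0.10, the guanylate-binding protein gene GBP2 by -0.49 ± 0.08 and IFITM2, which restricts viral entry, by -0.67 ± 0.12. IFI27 changed by -0.57 ± 0.22 and did not pass (adjusted p = 0.161). The member that rose was MX2 (0.45 ± 0.12, adjusted p = 0.0332). That call was lost whichever of the 4 libraries was left out (adjusted p up to 0.287), and leaving out 1 library gave 5 or 6 falls.

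**Figure D1:**
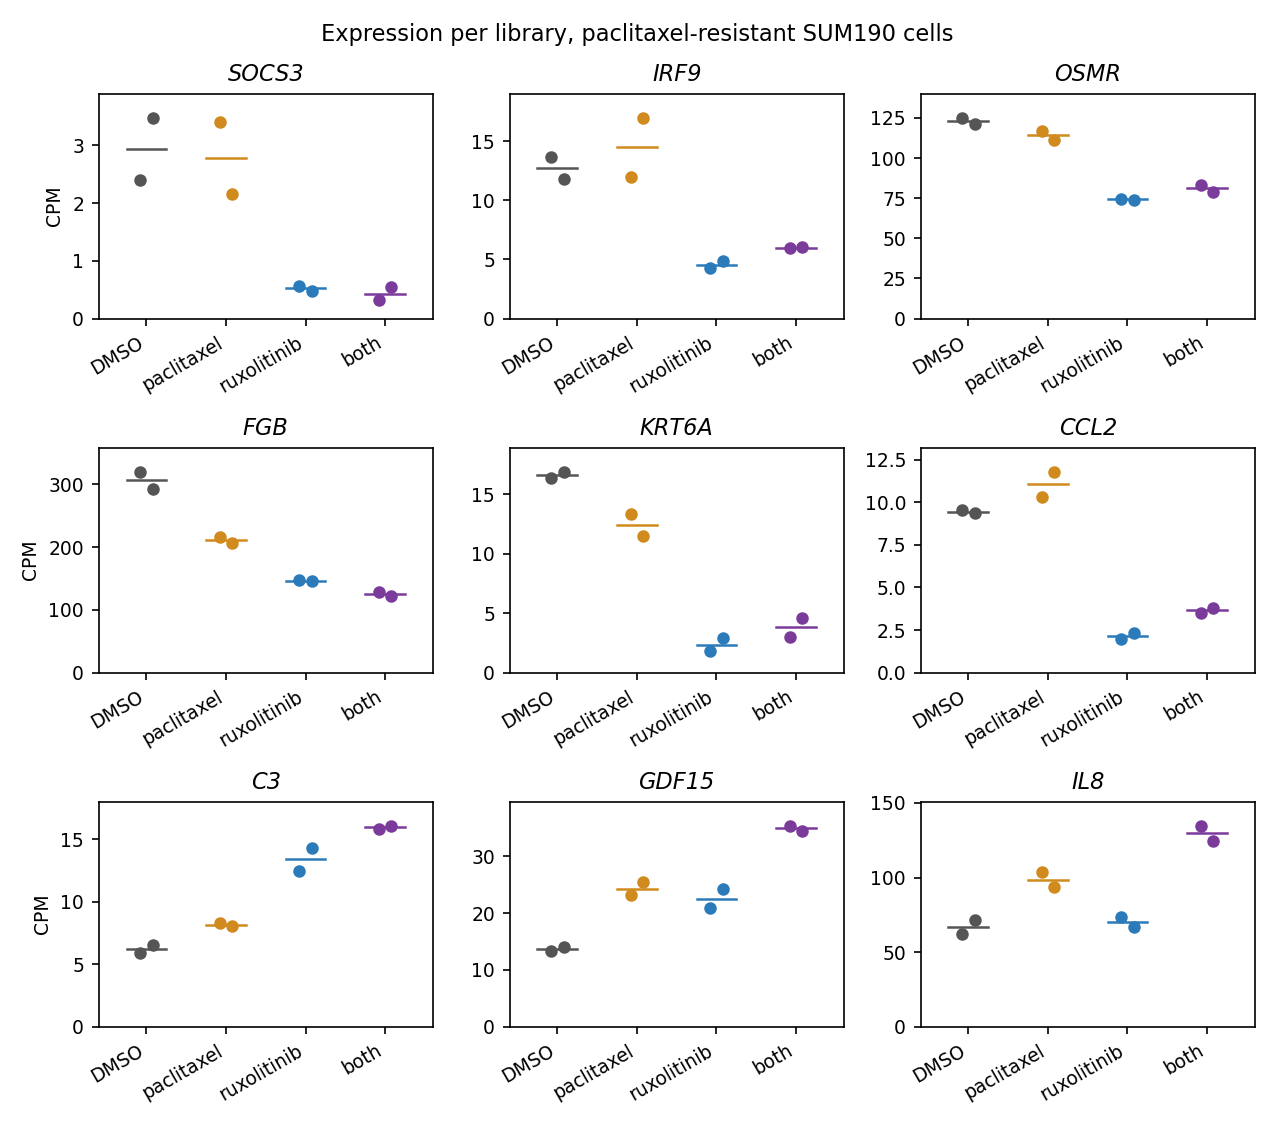
CPM of named genes in each of the 8 paclitaxel-resistant libraries, with 1 panel per gene, 1 point per library and a bar at the mean of each pair of libraries. SOCS3, OSMR, IRF9 and KRT6A are low in the 4 libraries with ruxolitinib, while GDF15 and C3 are highest in the combination libraries.

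Inflammatory genes moved both ways. Of 25 members of the NF-kB and cytokine list, 9 rose and 2 fell, 11 calls or 44% of the list where 4.78% of all genes were called, and the median was 0.02. Leaving out 1 library at a time gave 5 or 6 rises. CCL20, a chemokine for CCR6-bearing lymphocytes and dendritic cells, was at 17.9 and 17.8 CPM with DMSO, at 22 and 21.6 with paclitaxel, at 21.6 and 21.7 with ruxolitinib and at 36.4 and 32.9 with the combination. The combination libraries stood above all 6 others, a rise over DMSO of 0.92 ± 0.13 (adjusted p = 6.47e-05). IL8, the neutrophil chemokine also named CXCL8, was at 62.1 and 71.5 CPM with DMSO, at 103.4 and 93.9 with paclitaxel, at 73.3 and 67.1 with ruxolitinib and at 134.8 and 124.8 with the combination. Its rise of 0.95 ± 0.18 over DMSO passed (adjusted p = 0.00159), while the changes with ruxolitinib alone (0.07) and paclitaxel alone (0.56) did not, at adjusted p of 0.888 and 0.42.

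C3, the central complement component, was at 5.9 and 6.51 CPM with DMSO and at 15.8 and 16.1 CPM with the combination. The rise was 1.23 ± 0.10 (adjusted p = 5.8e-08), beside 1.00 with ruxolitinib alone and 0.35 with paclitaxel alone. RELB, an NF-kB subunit, rose by 0.68 ± 0.12 and TNFAIP3, the ubiquitin-editing inhibitor A20, by 0.61 ± 0.11. NFKB2, the precursor of the p52 subunit, rose by 0.50 ± 0.12 and BIRC3, an inhibitor of apoptosis, by 0.70 ± 0.17. The call for BIRC3 was lost whichever of the 4 libraries was left out (adjusted p 0.0861 to 0.135), and that for NFKB2 was lost without DMSO replicate 1, DMSO replicate 2 or combination replicate 2 (adjusted p 0.0501, 0.152 and 0.207). CCL2, the monocyte chemoattractant, went down: 9.53 and 9.38 CPM with DMSO, 2 and 2.31 with ruxolitinib, 3.5 and 3.8 with the combination. Its change was -1.17 ± 0.19 (adjusted p = 0.000245). The adhesion molecule gene ICAM1 changed by -0.64 ± 0.13 (adjusted p = 0.00252), a call lost without combination replicate 2 (-0.54, adjusted p = 0.0744).

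**Figure D2:**
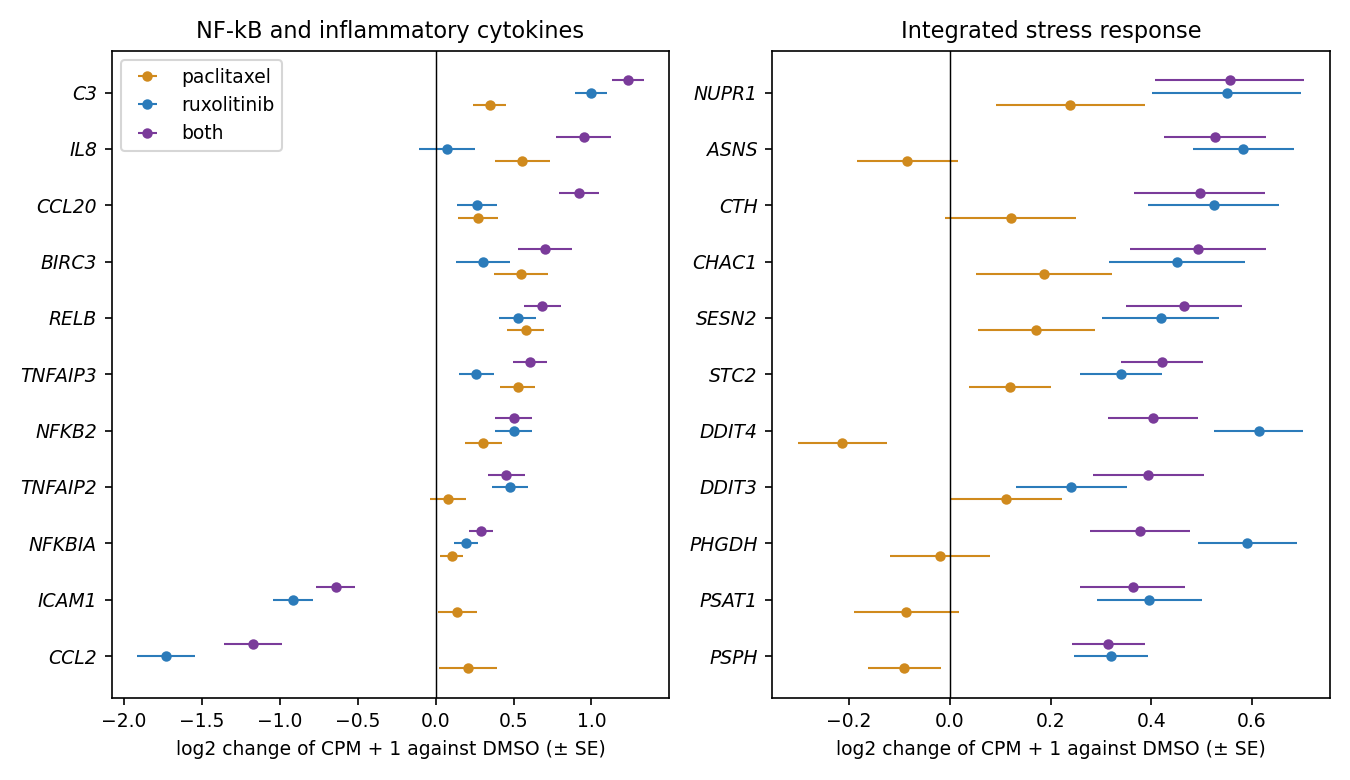
Log2(CPM + 1) change from DMSO of called genes, for paclitaxel, ruxolitinib and the combination. The genes are called members of the NF-kB list and the 11 called members of the integrated stress response list. Bars are 1 standard error of the fit either way. CCL2 and ICAM1 lie left of 0 with ruxolitinib and with the combination, and the stress response members lie right of 0 with the combination.

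The integrated stress response is the programme in which translation factor phosphorylation raises ATF4, which in turn activates amino acid synthesis and transport genes. Among all 12743 tested genes 2.17% rose, and 651 rose in the fit with only the 10 resistant-line libraries. Of 23 members of this programme tested, 11 rose and 0 fell, with a median of 0.36, and all 23 changes were above 0. The 12 others did not pass at this spread in the limma test. The size of the called count depended on single libraries: leaving out 1 at a time gave 2 to 4 rises, whereas the fit with only the 10 resistant-line libraries gave 19. ASNS, asparagine synthetase, was at 477 and 464.4 CPM with DMSO, at 455.5 and 432.6 with paclitaxel, at 714.9 and 696.1 with ruxolitinib and at 703.9 and 653.4 with the combination. The ruxolitinib and combination ranges overlapped, and both lay above DMSO and paclitaxel. The rise over DMSO was 0.53 ± 0.10 (adjusted p = 0.00196). STC2, a secreted glycoprotein, rose by 0.42 ± 0.08, and NUPR1, a stress-induced chromatin protein, by 0.56 ± 0.15. The call for NUPR1 was lost whichever of the 4 libraries was left out (adjusted p 0.0846 to 0.241).

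CHAC1, a glutathione-degrading enzyme, rose by 0.49 ± 0.14 and DDIT3, which encodes the transcription factor CHOP, by 0.39 ± 0.11. ATF4 itself was at 376.8 and 381.7 CPM with DMSO and at 443.5 and 430.3 CPM with the combination, a difference of 0.20 ± 0.08 that did not pass (adjusted p = 0.203). Without combination replicate 1, ASNS stood at 0.47 (adjusted p = 0.0524). The call for DDIT3 was lost whichever of the 4 libraries was left out (adjusted p 0.107 to 0.286), and that for CHAC1 was lost without DMSO replicate 1, combination replicate 1 or combination replicate 2 (adjusted p 0.464, 0.113 and 0.247).

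Of 20 chaperones and stress sensors of the endoplasmic reticulum, 6 fell, 1 rose and 13 did not pass. Among all tested genes 2.61% fell and 2.17% rose. The list's median was -0.15. CALR, the calcium-binding chaperone calreticulin, was at 1233 and 1248 CPM with DMSO and at 974.4 and 1016 CPM with the combination, a change of -0.32 ± 0.06 (adjusted p = 0.00165). HSP90B1 changed by -0.37 ± 0.08 and PDIA4, a protein disulfide isomerase, by -0.34 ± 0.09. The member that rose was ERN1, the stress sensor IRE1 (0.32 ± 0.07), whose call was lost without DMSO replicate 1 or combination replicate 1 (adjusted p 0.215 and 0.162). The calls for HSP90B1 and PDIA4 were lost whichever of the 4 libraries was left out (adjusted p 0.0647 to 0.148), and leaving out 1 library gave 1 to 3 falls.

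Beside 2.61% of all tested genes that fell and 2.17% that rose, 7 of 22 mesenchymal and matrix genes fell, 0 rose and 15 did not pass. The median was -0.16, 8 of the 22 changes were above 0, and 5 falls were called whichever of the 4 libraries was left out. TGFBI, a matrix protein induced by TGF-beta, was at 770.7 and 789.1 CPM with DMSO, at 661.1 and 661.3 with paclitaxel, at 396.1 and 425.3 with ruxolitinib and at 419.7 and 446.9 with the combination. Ruxolitinib and combination ranges overlapped below the others, and the change was -0.85 ± 0.08 (adjusted p = 2.69e-07). SNAI2, the transcription factor Slug, changed by -1.06 ± 0.18, the hyaluronan receptor gene CD44 by -0.66 ± 0.09 and TGM2, a transglutaminase, by -0.82 ± 0.14.

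Of 23 basal, squamous and cornified genes, 3 fell and 2 rose, where 2.61% of all tested genes fell and 2.17% rose. The list's median was -0.12, and fewer of it rose without DMSO replicate 1 or combination replicate 1. KRT6A is a keratin of stressed and squamous epithelium. Its change was the most negative among called genes averaging at least 5 CPM with DMSO or the combination, without overlap between those libraries. It was at 16.4 and 16.9 CPM with DMSO, at 13.3 and 11.5 with paclitaxel, at 1.81 and 2.87 with ruxolitinib and at 2.99 and 4.61 with the combination. Both combination libraries stood above both ruxolitinib libraries and far below DMSO, a change of -1.90 ± 0.14 (adjusted p = 2.31e-08). KRT6A has near-identical copies, KRT6B and KRT6C, so the assignment of its reads is uncertain. CDH3, P-cadherin, changed by -0.91 ± 0.10 and KRT16, the partner keratin, by -0.67 ± 0.12. TGM1, a crosslinking enzyme of the cornified envelope, rose by 0.95 ± 0.18, from 0.717 and 0.769 CPM to 2.13 and 2.6 CPM. The endothelial cadherin gene CDH5, the one called gene among 11 stromal, endothelial and immune markers, changed by -0.79 ± 0.18 on 75 and 86 reads with DMSO and 31 and 36 with the combination. That call was lost without DMSO replicate 1, DMSO replicate 2 or combination replicate 1 (adjusted p 0.0574, 0.115 and 0.247).

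**Figure D3:**
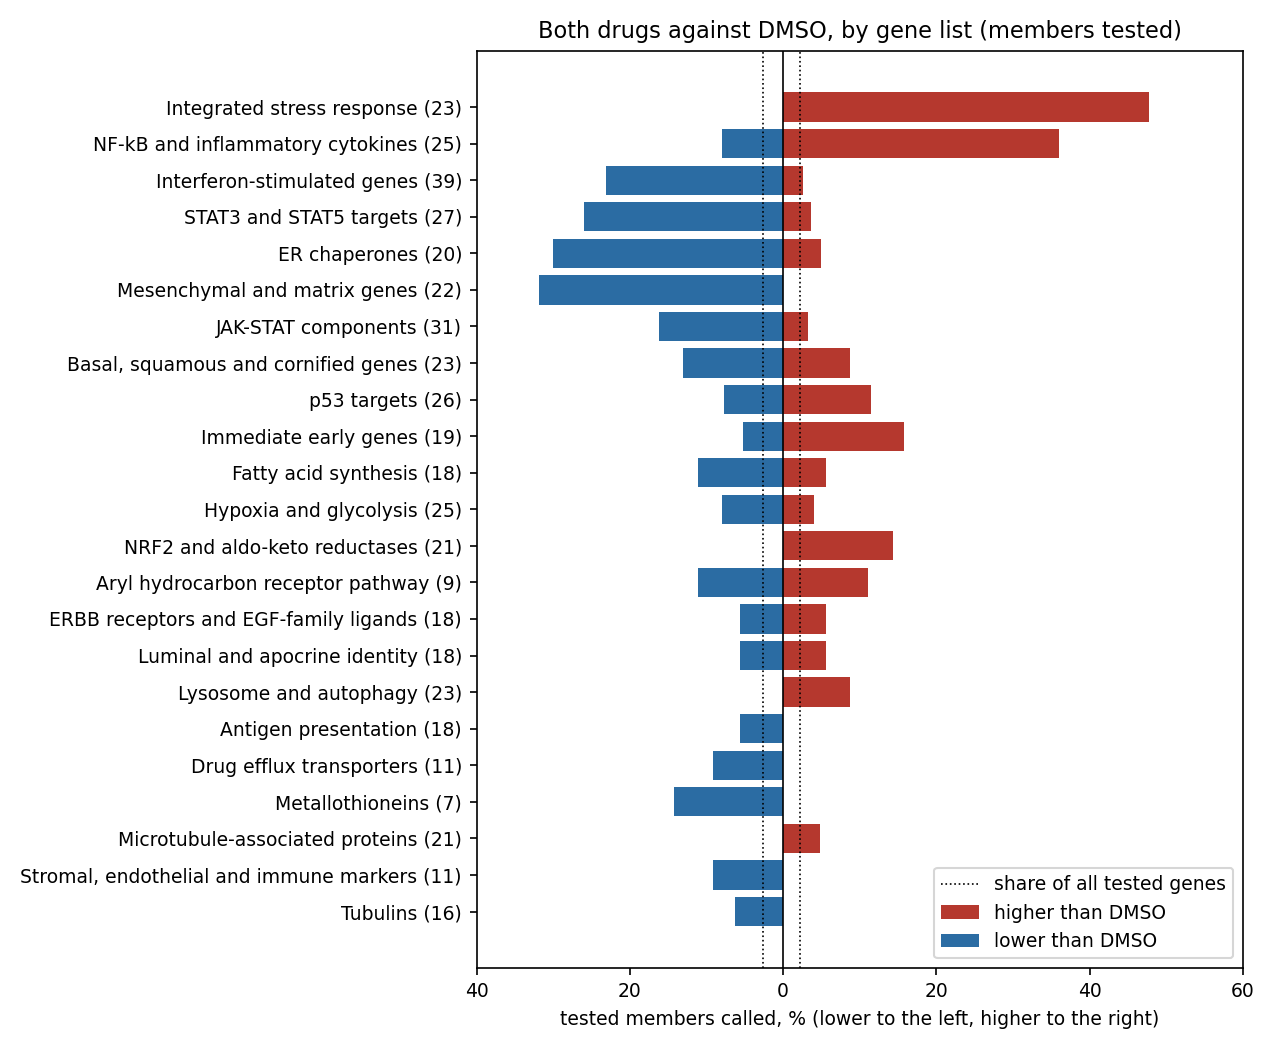
Share of the tested members of each gene list, in percent, that rose (right of 0) or fell (left of 0) with the combination at adjusted p under 0.05, with the number tested beside each name and dotted lines at the share of all tested genes (2.17% and 2.61%). The 8 lists without a called gene are not drawn, and the integrated stress response list, with 11 rises and 0 falls of 23, reaches furthest right.

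Proliferation genes did not pass the test in the fit over 15 groups. In limma, 0 of 30 genes of the G2/M and mitosis list, 0 of 32 of DNA replication, 0 of 22 of the G1/S list and 0 of 25 histone genes were called. At an unadjusted p under 0.05 the counts were 2, 1, 4 and 1, beside 15.2% of all tested genes. With only the 4 groups 4 rose and 1 fell, 3 rose and 1 fell, 1 rose and 3 fell, and 0 changed, in the same order. In that fit 1202 of all 12743 tested genes rose and 1304 fell. Cholesterol synthesis (0 of 23), the BCL2 family (0 of 16), heat shock proteins (0 of 18) and mitochondrially encoded genes (0 of 13) had none either, with 2, 2, 0 and 0 at an unadjusted p under 0.05. The mitochondrially encoded genes had a median change of 0.32 all the same, a value whose part in the other results was not tested. In the fit over 15 groups, which called 4.78% of all tested genes, only TUBB3 passed among 16 tubulins. TUBB3 is the neuronal beta-tubulin isotype. It stood at 11 and 13.1 CPM with DMSO, at 14.1 and 13.8 with paclitaxel, at 5.48 and 4.38 with ruxolitinib and at 6.45 and 6.62 with the combination. That was a change of -0.79 ± 0.11 (adjusted p = 6.58e-05), with both groups given ruxolitinib below both groups not given it. Of the 16 changes 12 were above 0, with a median of 0.14, and other fits called some of these. With the 10 resistant-line libraries 4 tubulins rose and 1 fell, where 651 of all 12743 tested genes rose and 702 fell. With the 4 groups 8 and 1 did, where 1202 and 1304 of all tested genes did. After GC correction 6 and 1 did, where 698 and 844 of 12149 genes did. Of 21 microtubule-associated proteins, only MAP1B passed (0.90 ± 0.15, adjusted p = 0.000315), beside 4 rises with the 4 groups.

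Among called genes averaging at least 5 CPM, the 12 with the highest fold change were GDF15, C3, SCNN1G, PIP, SAA1, BPIFA2, PI3, CES1, SCNN1B, SERHL2, FUT1 and NR4A1, from 1.29 for GDF15 down to 1.065 for NR4A1. SCNN1B and SCNN1G encode the beta and gamma subunits of the epithelial sodium channel. SCNN1G was at 5.19 and 5.18 CPM with DMSO and at 13.7 and 12.5 CPM with the combination (1.19 ± 0.12, adjusted p = 1.39e-06). PIP, a secretory protein of apocrine epithelium, went from 4.47 and 3.88 CPM to 11.6 and 9.49 CPM (1.16 ± 0.16). NR4A1, an orphan nuclear receptor, went from 3.96 and 4.65 CPM to 10.8 and 9.38 CPM (adjusted p = 9.95e-05), and was at 14.2 and 12.9 CPM with ruxolitinib alone.

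The 12 with the most negative change were KRT6A, TNC, FGB, CCL2, CWH43, DPYD, TMEM98, B3GALNT1, MXRA5, GLYATL2, HSD17B2 and ADAMTSL3, from -1.90 for KRT6A to -1.04 for ADAMTSL3. TNC, the matrix glycoprotein tenascin C, was at 112.4 and 114.4 CPM with DMSO, at 86.5 and 83.8 with paclitaxel, at 37 and 38.3 with ruxolitinib and at 35.9 and 41.5 with the combination. The ruxolitinib and combination ranges overlapped, and the change was -1.53 ± 0.12 (adjusted p = 2.73e-08). DPYD, which degrades pyrimidines and fluorouracil, went from 38 and 38.3 CPM to 17.1 and 17 CPM (-1.12 ± 0.09, adjusted p = 5.8e-08).

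Each agent alone was set beside the pair against the same 2 DMSO libraries, so the 3 changes share their control. Ruxolitinib alone changed 882 genes (6.92% of those tested), 364 upward (2.86%) and 518 downward (4.06%). Paclitaxel alone at 6.5 nM changed 12 (0.0942%), 9 upward (0.0706%) and 3 downward (0.0235%). The split was 8 and 5 under median-of-ratios scaling and 67 and 64 after GC correction. Among the 39 interferon-stimulated genes, ruxolitinib alone lowered 15 and raised 2 and paclitaxel alone called 0, beside 9 and 1 with the combination. The median change of that list was -0.37 with ruxolitinib, 0.15 with paclitaxel and -0.21 with the combination. In the integrated stress response list the medians were 0.33, -0.005 and 0.36, with 13, 0 and 11 rises. In the NF-kB list they were -0.07, 0.21 and 0.02, with 4 rises and 3 falls for ruxolitinib and 0 calls for paclitaxel. The 0 calls with paclitaxel are at an adjusted p, in a fit where 752 of all tested genes (5.9%) had an unadjusted p under 0.05.

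HMOX1, haem oxygenase 1, was moved in opposite directions by the agents. It was at 54.6 and 50.4 CPM with DMSO, at 85.5 and 91.9 with paclitaxel, at 32.4 in both libraries with ruxolitinib and at 44 and 47.7 with the combination. The paclitaxel rise of 0.74 (adjusted p = 0.00484) and the ruxolitinib change of -0.68 (adjusted p = 0.000372) passed, and the combination's -0.19 ± 0.11 did not (adjusted p = 0.471). The paclitaxel call was lost without DMSO replicate 1, DMSO replicate 2 or paclitaxel replicate 2 (adjusted p 0.0505, 0.257 and 0.315). ATF3, a stress-induced transcription factor, was at 10.1 and 10.2 CPM with DMSO, at 14.9 and 16.9 with paclitaxel, at 10.1 and 11.6 with ruxolitinib and at 16.2 and 15.8 with the combination. Its rise of 0.61 ± 0.12 with the combination (adjusted p = 0.00246) stood beside 0.60 with paclitaxel (adjusted p = 0.0493) and 0.09 with ruxolitinib (adjusted p = 0.771). The call with paclitaxel was lost whichever of its 4 libraries was left out (adjusted p 0.224 to 0.8).

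Compared directly over 15 groups, the combination and ruxolitinib alone differed in 5 genes (0.0392% of those tested), all higher with the combination. The split was 65 higher and 14 lower with the 10 resistant-line libraries and 303 and 259 with the 4 groups. After GC correction it was 37 and 7 over all groups and 228 and 326 with the 4 groups. In the fit over 15 groups an unadjusted p under 0.05 was reached by 626 genes (4.91%), no larger a share than the threshold alone would give. The number was 1581 with the 10 resistant-line libraries, 2505 with the 4 groups and 1214 of 12149 genes after GC correction. GDF15, a stress-induced cytokine of the TGF-beta family, was at 13.4 and 14 CPM with DMSO, at 23.2 and 25.4 with paclitaxel, at 20.9 and 24.2 with ruxolitinib and at 35.4 and 34.4 with the combination. Both single agents raised it (0.78, adjusted p = 0.000284, and 0.68, adjusted p = 4.06e-05), and the pair raised it by 1.29 ± 0.09 (adjusted p = 1.96e-08). The combination exceeded ruxolitinib by 0.61 (adjusted p = 0.0167).

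MAP1B, a microtubule-associated protein, was at 3.67 and 4.21 CPM with DMSO, at 6.45 and 8.57 with paclitaxel, at 4.1 and 3.9 with ruxolitinib and at 8.91 and 7.54 with the combination. The 4 libraries with paclitaxel all lay above the 4 without it, and the combination exceeded ruxolitinib by 0.88 (adjusted p = 0.0167). TUBA1A, an alpha-tubulin, was at 31.6 and 34 CPM with DMSO, at 21.8 and 25.9 with ruxolitinib and at 34 and 35.2 with the combination, a difference between the last of these of 0.52 (adjusted p = 0.0389). KRT16 exceeded ruxolitinib alone by 0.67 (adjusted p = 0.0251), and IL1RN, which encodes the interleukin-1 receptor antagonist, by 0.63 (adjusted p = 0.0167). Of these 5 calls, only that for GDF15 held without ruxolitinib replicate 2, and 0 held without ruxolitinib replicate 1 or either combination replicate (adjusted p for the 5 up to 0.985). Analysis of the recovered reads called 1 gene. Against paclitaxel alone the combination differed in 418 genes (3.28%), 148 higher (1.16%) and 270 lower (2.12%). After GC correction the split was 617 higher and 643 lower.

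The change with both drugs was then tested against the sum of the single-agent changes on the log2 scale, which asks whether the fold changes multiply. The departure from that sum was called in 0 of 12743 genes (0% of those tested; lowest adjusted p = 0.713), and 305 genes (2.39%) had an unadjusted p under 0.05. Analysis of the recovered reads with limma's voom also called 0. The half-width of the 95% interval of a gene's departure had a median of 0.34. That interval is for 1 gene without adjustment, and departures of up to 0.92 did not pass the adjusted test. From the 5th to the 95th percentile the departures ran from -0.28 to 0.24, and 98 genes reached 0.5 in size while 0 reached 1. The test supposes the same ruxolitinib dose in both groups, which the labels do not give.

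The genes furthest from the sum, though not called, included KRT6A, whose single-agent changes of -2.42 and -0.40 summed to -2.82 where -1.90 was measured. Its departure was 0.92 (95% interval 0.496 to 1.345). SERPINA3 departed by 0.76 (0.362 to 1.147): it was at 14.1 and 16.2 CPM with DMSO, at 11.4 and 12.6 with paclitaxel, at 7.15 and 8.11 with ruxolitinib and at 10.6 and 10.8 with the combination. The combination libraries lay between ruxolitinib and paclitaxel. IL1RN departed by 0.64 (0.334 to 0.949), being at 10.9 and 10.5 CPM with DMSO, 7.92 and 8.7 with ruxolitinib and 13 and 13.8 with the combination.

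NT5E, the ecto-nucleotidase CD73, fell with each treatment, to 10.9 and 11.2 CPM with paclitaxel, 10.2 and 11.1 with ruxolitinib and 10.9 and 12.1 with the combination, from 16.5 and 15.9. Its 3 treated groups overlapped, and the departure was 0.62 (0.335 to 0.901). The paclitaxel fall was lost whichever of its 4 libraries was left out (adjusted p 0.303 to 0.612), and the combination's without DMSO replicate 1 or combination replicate 1 (adjusted p 0.0647 and 0.0946). SCNN1B departed in the other direction, by -0.68 (interval -1.024 to -0.326), with 18.9 and 19.4 CPM under ruxolitinib and 19 and 16.6 CPM under the combination. For CCL20 the departure was 0.38 (0.005 to 0.751) and for GDF15 -0.17 (-0.449 to 0.103). Among the 12 genes with the highest changes all departures were negative (-0.68 to -0.11) and among the 12 lowest all were positive (0.02 to 0.92), which is a description only, because the selection and the departure use the same libraries.

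**Figure D4:**
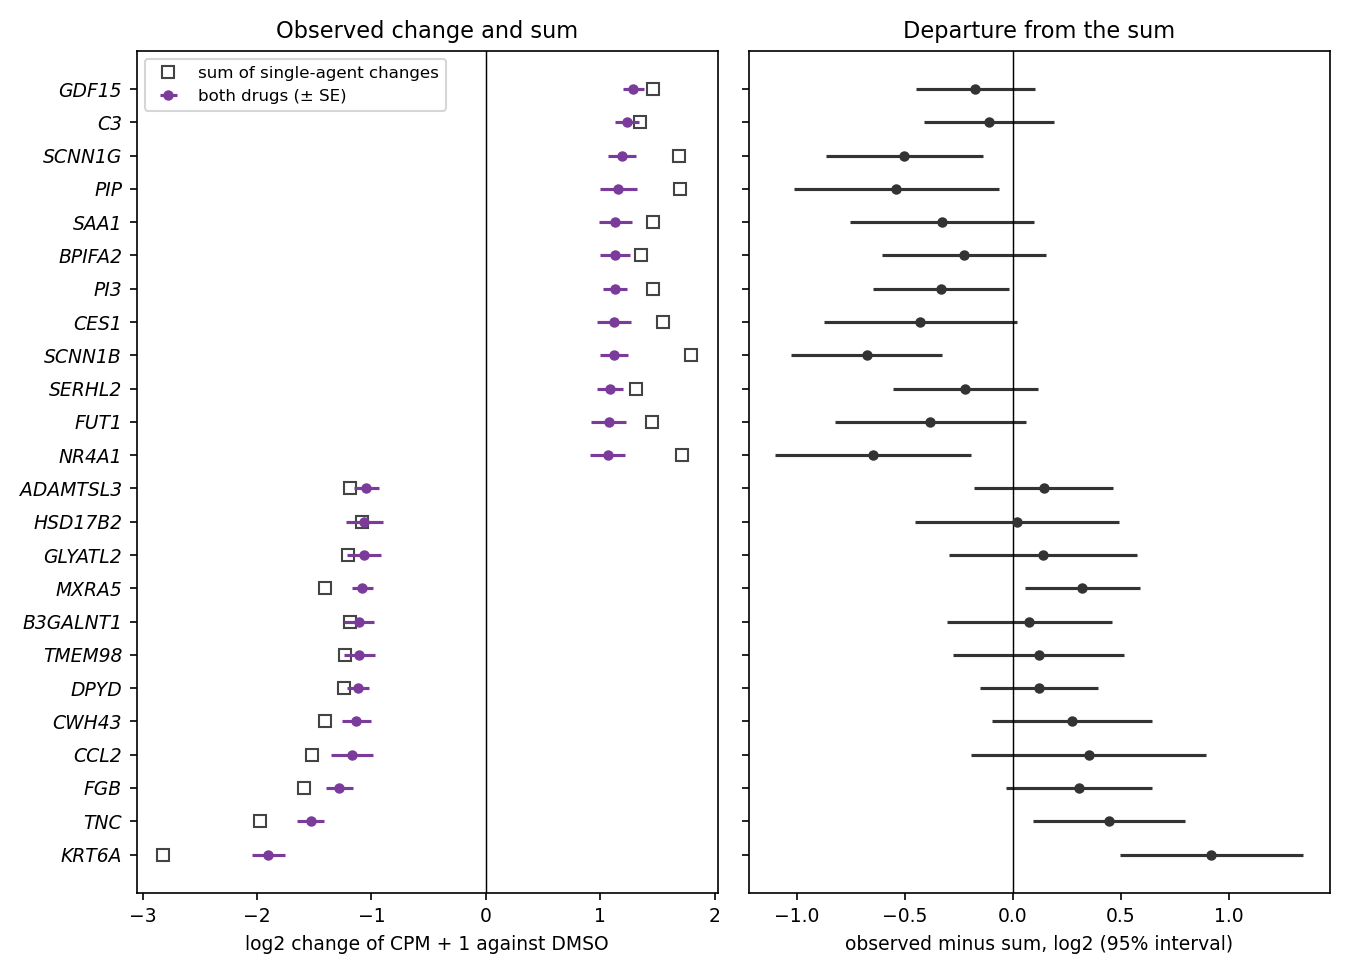
For the 12 genes with the highest and the 12 with the lowest change with the combination, the left panel gives that change (points, with 1 standard error) and the sum of the single-agent changes (open squares), and the right panel their difference with its 95% interval, all on the log2(CPM + 1) scale. In the right panel points lie left of 0 for the first set and right of 0 for the second, and no departure passed the adjusted test.

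With the spread taken from the 4 groups alone, 82 departures were called, 39 positive and 43 negative, between 0.206 and 0.92 in size. The first of them by adjusted p was EPGN, an EGF-family ligand named epigen, at 221.5 and 227.1 CPM with DMSO, 195.5 and 185.2 with paclitaxel, 143.1 and 146.5 with ruxolitinib and 177.5 and 192.3 with the combination. Its departure was 0.59, with an adjusted p of 1.12e-05 in the 4-group fit, 0.0133 with the 10 resistant-line libraries and 0.999 with all 15 groups. GC content moved with the departures. A gene's GC is here the median over short stretches of its transcript sequences, not the share of a whole transcript. Over the 12149 genes with a value, the departure and this GC had a Spearman rho of -0.54. That is a description across genes of the same libraries. The median departure fell from 0.10 in the first of 10 bins by GC (median 36.7%) to -0.14 in the last bin (64.2%). The 39 positive departures had a median GC of 42.1% and the 43 negative ones 60%, against 48.3% over all tested genes. After GC correction the 4-group fit called 66, of which 44 were among the 82. The part of GC in the remaining calls was not tested.

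**Figure D5:**
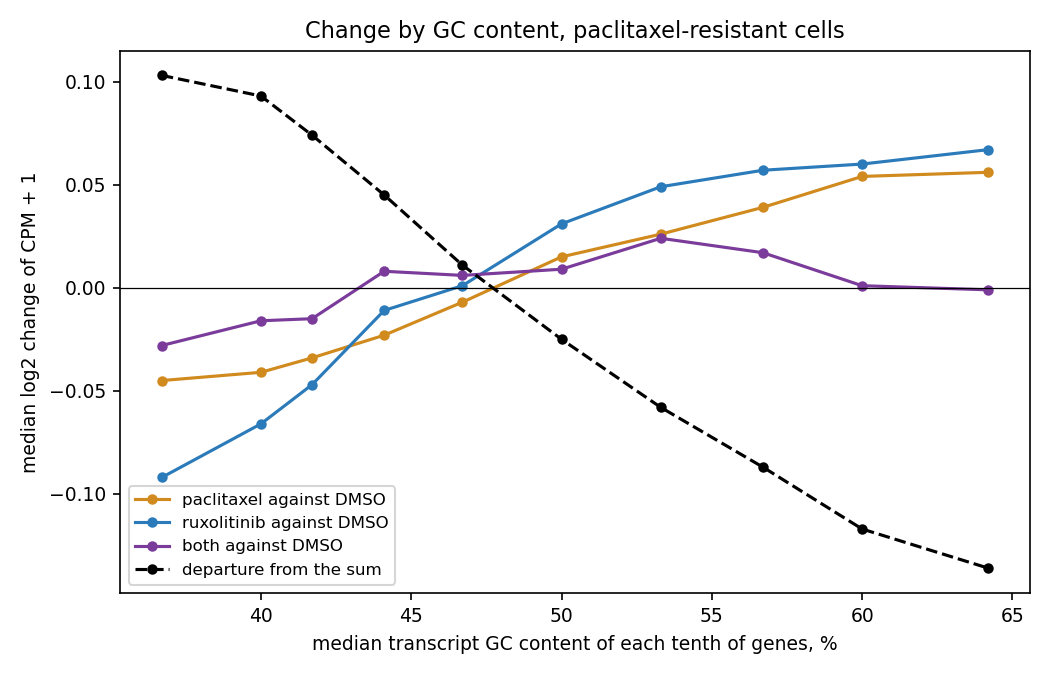
Median log2 change in 10 equal bins of genes ordered by GC content, taken as the median over short stretches of a gene's transcripts. Values are for the combination, each agent alone and the departure from the sum of the single agents. The departure runs from 0.10 at low GC to -0.14 at high GC, and the single agents slope the other way.

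In the parental SUM190 cells, from which the resistant cells derive, the pair labelled 15 nM ruxolitinib and 2.5 nM paclitaxel changed 1903 genes against their own DMSO libraries (14.9% of those tested), 848 upward (6.65%) and 1055 downward (8.28%). The paclitaxel dose was lower there, so the values are set side by side and the difference between the lines was not tested. All 12 of the highest genes above rose in the parental cells too, and 11 of the 12 lowest fell. CCL2 was the exception, at -0.07 (adjusted p = 0.856) in parental cells beside -1.17 in resistant ones. FGB changed by -2.83 in parental and -1.28 in resistant cells, SOCS3 by -1.96 and -1.45, PARP9 by -1.24 and -0.78, GDF15 by 1.54 and 1.29, and ASNS by 0.96 and 0.53.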

How the data were processed

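Gene expression was measured by poly(A) RNA sequencing (Kapa mRNA libraries, per the labels' protocols) in 30 libraries, with 18443749 to 29241801 reads in the 8 compared here. The deposited table holds log2 values, log2(CPM + 1), which the authors scaled by the TMM method of edgeR, per the file headers and the submitters' processing notes. Those notes also name STAR 2.5.1b and hg19 (GRCh37), while the sources used here name neither the read counter nor its strand setting, so overlapping and antisense genes cannot be told apart. The 3-read floors are that fixed count converted to CPM in each library, and the spread between libraries does not enter them.

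Genes with at least 1 CPM in 2 libraries were kept, and log2(CPM + 1) was fitted with limma 3.58.1 (R 4.3.3, trend and robust moderation) over all 15 groups, with 15 residual degrees of freedom, a pseudocount of 1 and Benjamini-Hochberg adjustment over all tested genes at a threshold of 0.05. The departure is the combination minus ruxolitinib minus paclitaxel plus DMSO. Scripts were tested on simulated data. Whole reads were recovered from the low values (100% of values whole within 0.01) and used with voom as an alternative. The named genes included members of gene lists and the 12 called genes with the highest and the 12 with the lowest change. Those 12 and 12 averaged at least 5 CPM in 1 or both of the combination and DMSO groups, without overlap between their libraries. The comparisons, lists and members were chosen with earlier results of these data known. Alternatives were another pseudocount, filter, scaling, moderation, choice of libraries, a replicate term, GC correction, and leaving out each library. GC came from GENCODE release 29 transcripts, as the median over the short stretches of sequence in which they are stored. The correction also held a term for the length of those stretches, so transcript length was not corrected for. Some list members counted in the totals are not reported here by name.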

Additional observations from a re-analysis of the deposited data

How the results depend on the processing

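Changed counts are given for the combination, ruxolitinib alone, paclitaxel alone, the combination over ruxolitinib and the combination over paclitaxel, in that order. They were 609, 882, 12, 5 and 418 in the reported analysis, 1353, 2102, 114, 79 and 1047 with only the 10 resistant-line libraries, and 2506, 3393, 701, 562 and 2303 with only the 4 groups. Of the 609, 603 and 607 were called again in these. GC correction, chosen after seeing the data, gave 1542, 1930, 131, 44 and 1260 (3699 for the parental combination, 1903 without it). With the replicate number as a block as well it gave 1531, 1901, 131, 48 and 1245 (3692), and with only the 4 groups 2968, 3424, 987, 554 and 2719. Departures numbered 1, 82 and 66 with the 10 libraries, with the 4 groups and with the 4 groups after correction, against 0 reported and 0 after correction over all groups. Without a filter paclitaxel called 4 and the combination over ruxolitinib 3, and voom on recovered reads, also chosen after seeing the data, called 5 and 1. Leaving out 1 library gave 258 to 304, 358 to 407, 1 to 4, 0 to 1 and 141 to 172, 947 to 1756 for the parental pair, and 0 departures each time. The cause of these differences was not tested, except that a left-out library leaves an arm with 1 library, assumed to vary like the others.

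The labels number the libraries of each group 1 and 2. Deviations of same-numbered libraries correlated at -0.079 to 0.161 over the 6 pairs of groups, and a library matched its own number better in 2 of 6, so the numbers were not treated as pairs. With the replicate block the combination called 581. Median-of-ratios scaling moved the median change by at most 0.0107 on the log2 scale in the resistant-line comparisons. No gene named for a change with the combination reversed that change under these alternatives, whereas changes with the single agents were run for only some of the named genes. Groups of 2 libraries limit the precision throughout.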

Other observations

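With the combination 2.17% of all 12743 tested genes rose, and 1202 rose in the fit with only the 4 groups. Of 21 NRF2 targets and aldo-keto reductases, 3 rose and 0 fell with the combination in limma. The other 18 did not pass, and the list's median was 0.15. Rises numbered 2 without DMSO replicate 1, DMSO replicate 2 or combination replicate 1, and 10 with only the 4 groups. TXNRD1, thioredoxin reductase, was at 747.5 and 762.4 CPM with DMSO, at 913 and 911.3 with paclitaxel, at 918.2 and 925.2 with ruxolitinib and at 1041 and 1025 with the combination. The combination libraries stood above all others, a change of 0.45 ± 0.08 (adjusted p = 0.00113). The reductase gene AKR1B10 rose by 0.55 ± 0.10, a call lost without DMSO replicate 1 (0.47, adjusted p = 0.0537).

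Of 19 immediate early genes, 3 rose (ATF3, DUSP5 and DUSP6), 1 fell and 15 did not pass, with a median of 0.04, where 2.17% of all tested genes rose and 2.61% fell. Rises numbered 2 without DMSO replicate 2 and 1 without any 1 of the other libraries compared. The gene that fell was JUN, an AP-1 subunit, at 53.4 and 52.2 CPM with DMSO, at 52.1 and 54.9 with paclitaxel, at 30.5 and 35 with ruxolitinib and at 38.2 and 37.7 with the combination. Its change was -0.47 ± 0.09 (adjusted p = 0.00204), with both groups given ruxolitinib below both groups without it. DUSP6, an ERK phosphatase, rose by 0.34 ± 0.08, a call lost whichever of the 4 libraries was left out (adjusted p 0.0569 to 0.104). The nuclear receptor gene NR4A1, which rose by 1.065 with the combination, is not a member of this list, so these counts leave it out.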
